A study of Mus musculus with 69 samples.

Results

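Gene expression at 1 day after instillation was compared between the lungs of 5 mice given 162 µg of NRCWE-002, a titanium dioxide (TiO2) nanoparticle with a positively charged surface modification, and the lungs of 5 mice given the vehicle alone. These 10 arrays were chosen by their labels from the 69 arrays of the series, and every gene that passed the filter on dim probes is included. All mice were female C57BL/6, 5 to 7 weeks old on arrival with 1 to 3 weeks of acclimatisation, and each received a single dose into the trachea. Per the study's description the particles were dispersed in serum and water and the controls received that vehicle, while the labels of the control arrays name water alone. The wider series holds lungs given 18, 54 or 162 µg of NRCWE-002 or of NRCWE-001, the unmodified particle, taken on day 1 or day 28. Each array carried the lung RNA of 1 mouse in the red channel and a universal mouse reference RNA in the green channel, so each level below is a log2 ratio of lung to reference, and comparisons are made between groups of mice.

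Inhaled or instilled particles are taken up by alveolar macrophages and epithelial cells, which release cytokines such as interleukin 1 beta and chemokines that draw neutrophils and monocytes from the blood. Interleukin 1 and interleukin 6 act through NF-kB, STAT3 and C/EBP factors to switch on the acute phase genes. These genes encode secreted proteins that bind lipids, iron, haem and proteases, and some of them, such as Saa3, are made in the lung itself. Cells that secrete much protein also raise the chaperones of the endoplasmic reticulum, a programme known as the unfolded protein response. In whole lung, more cells of a type and more RNA per cell cannot be told apart.

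Between 62.5% and 73.3% of the spots of the 10 arrays were well above background in the sample channel, within the 61.4% to 87.8% of all 69 arrays, and 0 spots were saturated. The number of arrays limits the precision of each mean. Alveolar, airway and endothelial markers such as Sftpc, Ager, Scgb1a1 and Cdh5 were well above background on all 10 arrays, as the tissue label says. The summed level of 4 heart muscle markers varied among vehicle arrays from 12.2 to 122 and among exposed arrays from 15.4 to 78.8 on the linear ratio scale. Replicate 5 of the exposed group stood apart. It was the lowest of the 5 exposed arrays for 73 of the 85 genes called higher, and the median change of these genes in the single arrays was 0.63, 0.74, 0.73, 0.78 and 0.28 for replicates 1 to 5. Without it 209 genes (1.19%) were called (173 higher and 36 lower), 99 of them among the 105 called with it. Exposed and vehicle arrays shared 2 of the 18 slides, so slide was also fitted as a block, and 2 within-slide differences could be read.

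Of 17627 genes tested with limma, 105 (0.596%) were called at an adjusted p below 0.05, with 85 higher (0.482%) and 20 lower (0.113%) after exposure. Of these, 21 rose and 3 fell more than 2-fold, while 39 of the higher and 13 of the lower genes changed less than 1.5-fold. In 85 of the 105 (70 higher and 15 lower) the arrays of the groups did not overlap, which held for 4.9% of all genes tested (3.55% higher and 1.36% lower). With slide as a fixed block 343 genes were called (1.58% of all genes higher and 0.369% lower), including 76 of the 105 (65 higher and 11 lower), and all 105 kept their direction. On the authors' log2 ratios 104 genes were called (77 higher and 27 lower), 85 of them shared. Median centring of each array in place of loess gave 34 higher and 3 lower. The 10 largest rises among the genes called were those of Saa3, Saa1, Cxcl5, Lcn2, Timp1, Saa2, Orm2, Noxo1, Ccl17 and Orm1, and the smallest p belonged to a fall, that of Gas6.

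**Figure D1:**
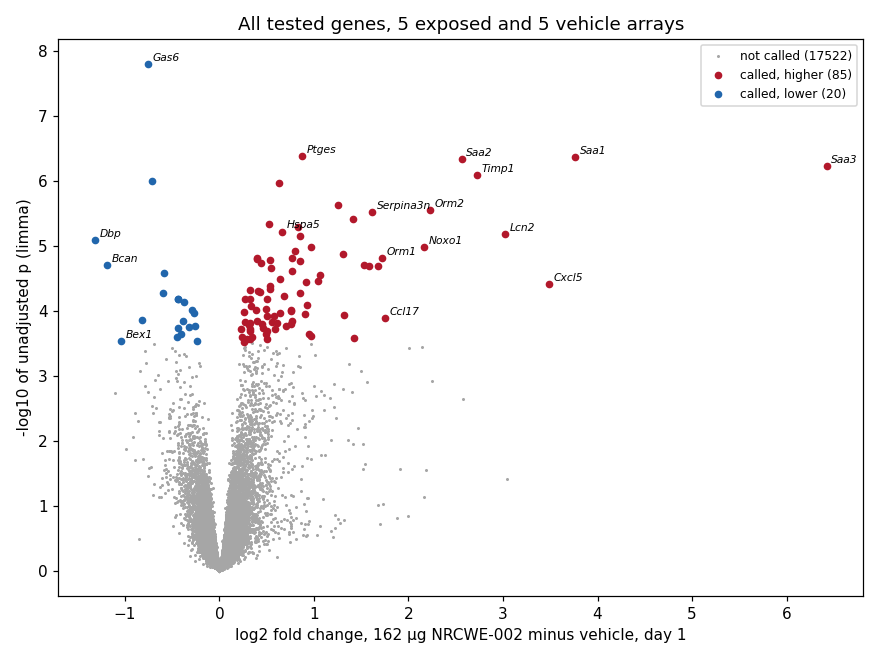
Log2 fold change (horizontal) against -log10 of the unadjusted p (vertical) for 17627 genes, 5 arrays at 162 µg of NRCWE-002 against 5 vehicle arrays on day 1. The 85 genes called higher are red and the 20 called lower are blue. Saa3 lies furthest to the right at 6.42, and Gas6 is the highest point at -0.76.

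Many of these calls were lost when 1 array was left out. In 10 fits that each left out 1 of the 10 arrays, 18 of the 105 calls (15 higher and 3 lower) were made every time. They were Saa1, Saa2, Saa3, Lcn2, Orm2, Serpina3n, Serpina3m, Timp1, Noxo1, Ptges, Clmp, Sdf2l1, Hspa5, Nme1 and Ifitm2 among the higher genes, and Gas6, Dbp and Cdc42ep3 among the lower genes. Among the other genes, the calls of Il4i1, Clec4d, Itih4, C3, Tmem176b, Nfil3 and Ptgs1 were lost in 9 of the 10 fits. Those of Ccl17 and Serpind1 were lost in 8. Without exposed replicates 1 to 5 the calls lost were 41, 82, 67, 72 and 6 of the 105, and without vehicle replicates 1 to 5 they were 49, 56, 48, 64 and 47. The total was lowest at 24 without exposed replicate 2.

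Acute phase proteins were the group with the most calls. Of 25 measured genes of this list 12 rose, 0 fell and 13 did not pass the test, with a median log2 fold change of 0.95 against 0.01 over all genes. The median in the 5 exposed arrays was 0.85, 0.61, 1.28, 0.68 and 0.41, all above the vehicle range of -0.06 to 0.05. With slide as a block 12 were called, and without exposed replicate 5 there were 14. Without a block, 0.482% of all genes tested were called higher and 54.9% were above 0, the background for this and later lists.

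Saa3, the serum amyloid A gene made outside the liver, had log2 ratios of 3.49, 4.38, 4.41, 3.81 and -0.57 in the 5 exposed lungs and -3.04, -3.36, -3.05, -3.78 and -3.36 in the 5 vehicle lungs. All 5 exposed arrays lay above all vehicle arrays, although replicate 5 was far below the other 4. The log2 fold change was 6.42 ± 1.14 (SE), or 85.8-fold (adjusted p = 0.00206), and 7.34 without replicate 5. Saa1, a circulating serum amyloid A, read 3.33, 4.29, 4.30, 3.41 and 0.06 against -0.75, -0.65, -0.56, -0.74 and -0.72 in vehicle lungs. Its change was 3.76 ± 0.66 (adjusted p = 0.00205), with the same low replicate and a narrow vehicle group. Its 2 probes gave 2.68 and 4.85. Saa2, its close relative, read 2.83, 3.39, 3.46, 2.78 and 0.50 against -0.06, 0.03, 0.10, -0.03 and 0.11, a change of 2.56 ± 0.45 (adjusted p = 0.00205) with groups that did not overlap. Probes of Saa1 and Saa2 may bind both transcripts, and this was not tested.

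Lcn2, which binds bacterial siderophores and so withholds iron, read 4.54, 4.80, 4.61, 4.32 and 2.58 after exposure and 1.25, 1.22, 1.14, 1.28 and 0.87 in vehicle lungs. The groups were separated, with replicate 5 again the lowest exposed array, and the change was 3.02 ± 0.61 (8.10-fold, adjusted p = 0.00716). The alpha-1 acid glycoprotein Orm2 read 2.57, 2.83, 2.79, 2.38 and 0.58 against -0.01, 0.06, -0.09, -0.15 and 0.20. It was not well above background on any vehicle array, so its vehicle level is uncertain. In the sample channel, with low vehicle signals raised to a floor, it was estimated as 5.5-fold higher after exposure. The ratio to the reference changed by 2.23 ± 0.43 (4.68-fold, adjusted p = 0.00473). Its relative Orm1 read 1.77, 2.16, 2.24, 1.62 and 0.31 against -0.12, -0.04, 0.05, -0.21 and -0.19, a change of 1.72 ± 0.36 (adjusted p = 0.0105). Orm1 was well above background on only 1 of 5 vehicle arrays. Both genes were separated between the groups, and cross-hybridisation between them was not tested.

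The serine protease inhibitors of the Serpina3 family followed. Serpina3n read 3.23, 3.23, 3.59, 3.15 and 2.02 against 1.63, 1.47, 1.38, 1.00 and 1.66 (change 1.62 ± 0.31, adjusted p = 0.00473), and Serpina3m read 3.52, 3.39, 3.41, 3.43 and 2.70 against 1.62, 1.61, 1.87, 1.97 and 2.31 (change 1.41 ± 0.28, adjusted p = 0.00563). Neither gene overlapped between the groups. The ferroxidase ceruloplasmin, Cp, read 0.79, 1.39, 1.23, 1.12 and 0.53 against -0.24, -0.62, -0.78, -0.83 and -0.13, a change of 1.53 ± 0.33 (adjusted p = 0.011). The haem-binding protein hemopexin, Hpx, read 1.13, 1.57, 1.49, 1.41 and 0.70 against -0.05, -0.01, -0.19, -0.26 and 0.25, a change of 1.31 ± 0.28 (adjusted p = 0.0105). Cd14, the co-receptor for bacterial lipopolysaccharide, read -0.27, -0.05, -0.04, 0.18 and -0.52 against -1.55, -1.76, -1.74, -1.91 and -1.64, a change of 1.58 ± 0.34 (adjusted p = 0.011). For these 3 genes too every exposed array exceeded every vehicle array. Itih4 rose by 0.95. Of the members that missed the threshold, Orm3 was at 0.44 (adjusted p = 0.108), the fibrinogen chain Fgg at 0.98 (adjusted p = 0.177) and Saa4 at 0.32 (adjusted p = 0.192). Lrg1, a leucine-rich glycoprotein of the acute phase that the list did not hold, read 4.67, 4.24, 4.05, 4.07 and 3.81 against 3.23, 2.57, 3.19, 3.48 and 3.16, a change of 1.04 ± 0.23 (adjusted p = 0.0155), without overlap.

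**Figure D2:**
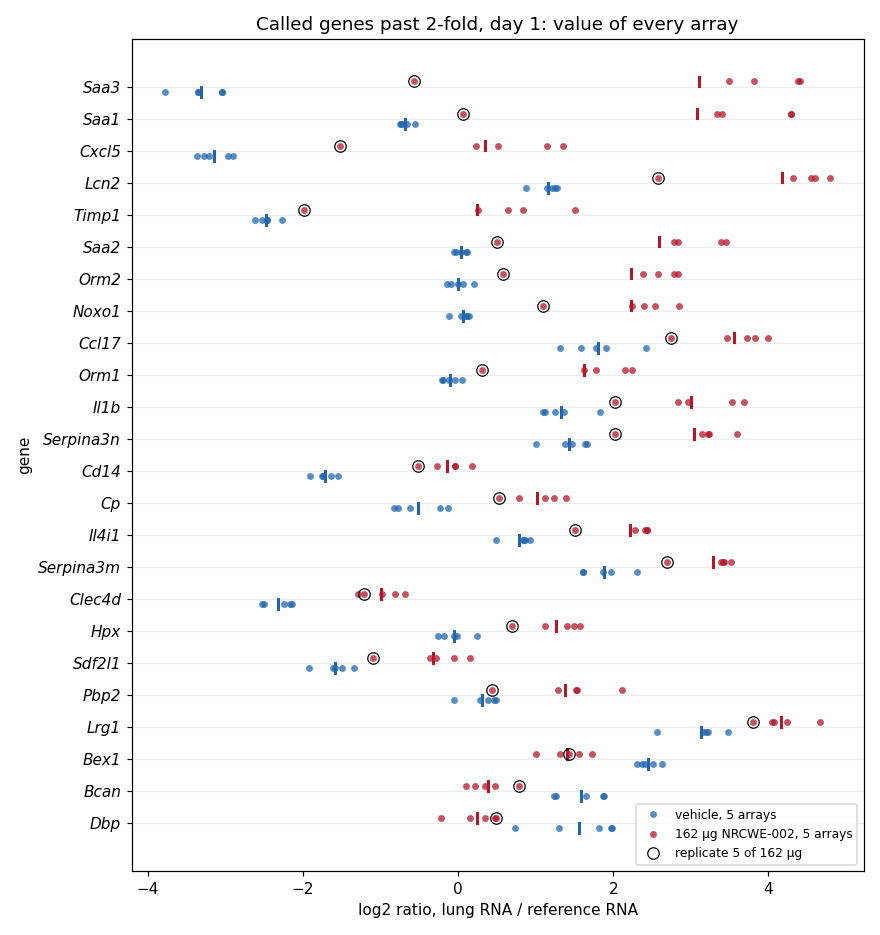
Log2 ratio of lung to reference RNA (horizontal) for the 24 called genes past 2-fold (vertical), with 1 point per array, vehicle in blue and 162 µg of NRCWE-002 in red, and a bar at each group mean. Replicate 5 of the exposed group is ringed. It lies nearest to the vehicle arrays for Saa3, at -0.57, and for most other genes that rose, and Pbp2 is the only one of the 24 whose groups overlap.

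Sequences before the start of transcription are shown for the 4 genes with the largest rise that had a promoter entry (RefSeq, GRCm38.p6). Saa3, Saa1 and Lcn2 are acute phase genes, and Timp1 is an inhibitor of matrix metalloproteinases. Each run is the 250 bases upstream, 5′ to 3′ on the gene's strand, and capitals mark letters that match the C/EBP motif TTGCNNAA on either strand. The NF-kB and STAT motifs were also searched and had no match in these 4 windows. The windows are chr7:46715677-46715926 for Saa3, chr7:46742981-46743230 for Saa1 and chr2:32387740-32387989 for Lcn2, all on the minus strand, and chrX:20869916-20870165 on the plus strand for Timp1. The matches lie 99 to 92, 182 to 175 and 216 to 209 bases before the start of Saa3, Saa1 and Lcn2.
Saa3: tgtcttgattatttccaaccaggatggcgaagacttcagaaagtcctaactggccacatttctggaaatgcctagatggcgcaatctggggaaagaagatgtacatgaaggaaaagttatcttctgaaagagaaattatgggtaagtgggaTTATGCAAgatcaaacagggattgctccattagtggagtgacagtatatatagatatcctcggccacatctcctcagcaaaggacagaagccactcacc
Saa1: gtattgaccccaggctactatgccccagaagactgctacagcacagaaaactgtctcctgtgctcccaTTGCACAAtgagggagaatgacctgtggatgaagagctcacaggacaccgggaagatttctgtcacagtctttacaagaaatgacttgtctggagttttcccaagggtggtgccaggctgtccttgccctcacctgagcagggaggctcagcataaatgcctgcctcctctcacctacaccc
Lcn2: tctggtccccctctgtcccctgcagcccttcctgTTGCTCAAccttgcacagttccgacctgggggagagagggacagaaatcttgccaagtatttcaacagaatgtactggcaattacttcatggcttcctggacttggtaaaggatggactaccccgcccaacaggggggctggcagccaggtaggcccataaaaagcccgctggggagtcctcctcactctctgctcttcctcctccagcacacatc
Timp1: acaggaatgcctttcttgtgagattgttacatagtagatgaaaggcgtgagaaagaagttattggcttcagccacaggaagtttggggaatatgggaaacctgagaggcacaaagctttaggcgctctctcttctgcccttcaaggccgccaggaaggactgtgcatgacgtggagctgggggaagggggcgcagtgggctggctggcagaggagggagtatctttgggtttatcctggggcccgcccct

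Over windows of 250 bases before to 50 after the start, the C/EBP motif was found in 10 of the 72 genes called higher that had an entry (13.9%), in 1 of 16 called lower (6.25%) and in 9.37% of 13991 tested genes. Of the 9 called acute phase genes with an entry 6 held it, namely Saa1, Saa2, Saa3, Lcn2, Orm2 and Hpx, while 0 of the 9 held the NF-kB motif, 1 the STAT motif, 1 the antioxidant response element and 0 the metal response element. The STAT motif TTCNNNGAA was found in 15.3%, 12.5% and 7.68% of the same 3 sets, and the NF-kB motif in 12.5%, 0% and 4.94%. The letters TGACNNNGC of the antioxidant response element were found in 15.3%, 0% and 14.1%, and those of the metal response element (TGCACNC or TGCGCNC) in 19.4%, 37.5% and 32.2%. Both strands were searched and matches of different motifs could overlap. Among the called feedback genes of these pathways, the windows of Nfkbia (chr12:55492648-55492897, minus strand, NF-kB match in capitals, 29 to 20 bases before the start) and Socs3 (chr11:117969367-117969616, minus strand, STAT match in capitals, 154 to 146 bases before) are shown. These 2 were chosen after their values were seen.
Nfkbia: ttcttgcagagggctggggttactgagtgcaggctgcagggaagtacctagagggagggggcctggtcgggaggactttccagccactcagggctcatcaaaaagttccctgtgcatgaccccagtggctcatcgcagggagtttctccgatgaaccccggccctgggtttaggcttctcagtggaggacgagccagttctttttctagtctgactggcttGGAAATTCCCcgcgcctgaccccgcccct
Socs3: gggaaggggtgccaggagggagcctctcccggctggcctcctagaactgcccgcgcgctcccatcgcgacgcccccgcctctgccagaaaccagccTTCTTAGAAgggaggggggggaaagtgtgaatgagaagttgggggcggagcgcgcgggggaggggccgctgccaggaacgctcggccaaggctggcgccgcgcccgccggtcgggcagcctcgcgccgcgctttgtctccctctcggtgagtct

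Chemokines and cytokines were also among the genes called higher. Of 13 measured CXC chemokines and receptors of neutrophil recruitment 2 rose and 0 fell (median 0.35). Cxcl5, a neutrophil attractant made by lung epithelium, read 0.23, 1.15, 0.51, 1.35 and -1.53 after exposure and -2.97, -3.28, -3.21, -3.36 and -2.90 in vehicle lungs. It was well above background on 0 of 5 vehicle arrays, and in the sample channel it was estimated as 11.8-fold higher after exposure. Its ratio to the reference changed by 3.49 ± 0.78 (adjusted p = 0.0167), and the groups did not overlap. Cxcl3, of the same family, was above background on 4 exposed and 0 vehicle arrays. In the sample channel it was estimated as 2.15-fold higher. Its ratio to the reference changed by 0.85 ± 0.19 (adjusted p = 0.0194), and with slide as a block the adjusted p was 0.0684. Cxcl1 was at 1.40 with an adjusted p = 0.131.

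Of 19 CC chemokines and receptors of monocytes and macrophages 1 rose and 0 fell, although the median was 0.71. The gene called was Ccl17, a ligand of CCR4 on T cells, at 3.83, 3.47, 4.00, 3.72 and 2.74 against 2.43, 1.31, 1.91, 1.77 and 1.58, a change of 1.75 ± 0.43 (adjusted p = 0.0324). Its lowest exposed array, replicate 5, lay just above the highest vehicle array. The monocyte attractants Ccl7 and Ccl2 were at 2.14 and 2.00 and the CCR6 ligand Ccl20 at 0.71, with adjusted p = 0.0566, 0.0574 and 0.0574. Without exposed replicate 5 there were 4 calls in this list. Cxcl12, which retains and attracts CXCR4-bearing cells, rose by 0.68, with 0.30 and 1.06 from its 2 probes.

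Il1b, the inflammasome-processed cytokine, was the only one of 21 cytokine and inflammasome genes called. It read 2.96, 3.53, 2.83, 3.68 and 2.02 in exposed and 1.13, 1.09, 1.36, 1.83 and 1.25 in vehicle lungs, a change of 1.67 ± 0.36 (adjusted p = 0.011), without overlap. The cytokine Il6 was at 1.03 (adjusted p = 0.139) and the epithelial alarmin Il33 at 0.79 (adjusted p = 0.16). Inhibitors of the cytokine pathways rose too. Of 16 NF-kB subunits and feedback regulators 2 rose, the inhibitors Nfkbia at 0.70 and Nfkbib at 0.32, and of 18 genes of interleukin 6 and STAT3 signalling 1 rose, the inhibitor Socs3 at 0.61. These 3 were not called with slide as a block, where their adjusted p were 0.164, 0.0521 and 0.141. Litaf, a regulator of the response to lipopolysaccharide, rose by 0.55, and the T cell co-stimulatory receptor Tnfrsf9 by 0.97, with 1.25 and 0.70 from its 2 probes.

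Genes of arriving and resident leukocytes gave few calls. Of 23 neutrophil genes 2 rose and 0 fell (median 0.35), namely Clec4d and Trem1. Clec4d, a C-type lectin of myeloid cells, read -0.99, -0.68, -1.29, -0.82 and -1.21 against -2.24, -2.17, -2.51, -2.15 and -2.54, a change of 1.32 ± 0.32 (adjusted p = 0.0305), without overlap. Its adjusted p was 0.0841 with slide as a block. Trem1, an amplifying receptor of neutrophils and monocytes, rose by 0.43. The summed level of 6 defining neutrophil markers was 106 to 201 in vehicle and 110 to 241 in exposed lungs, with 0 of 6 called. That sum rests mostly on S100a9, the marker with the highest ratios, which changed by 0.24. The median change of the 6 was 0.55. Csf3r and Mmp8, both at 0.62, did not overlap between the groups (limma adjusted p = 0.138 and 0.106), while the other markers did. Of the 23 neutrophil genes 16 were above 0, against 54.9% of all genes tested, and 7 were higher without overlap, against 3.55%. Of 24 macrophage genes 0 were called (median 0.12), with Siglecf, a marker of alveolar macrophages and eosinophils, at -0.84 (adjusted p = 0.0865) and Ear1 at -1.10 (adjusted p = 0.131). Without exposed replicate 5, 2 macrophage genes were called lower. Tmem176a and Tmem176b, paired membrane genes of myeloid cells, rose by 0.92 and 0.90 and were the 2 calls among 11 Ms4a and Tmem176 genes. The T cell, B cell and NK cell lists had 0 calls and medians of 0.04, 0.01 and -0.11.

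Il4i1, a secreted amino acid oxidase of myeloid cells, read 2.44, 2.40, 2.44, 2.29 and 1.50 against 0.84, 0.49, 0.86, 0.92 and 0.84, a change of 1.42 ± 0.37 (adjusted p = 0.0458). Noxo1, the organiser subunit of NADPH oxidase 1, read 2.25, 2.54, 2.84, 2.40 and 1.09 against 0.11, 0.04, 0.15, 0.10 and -0.12, a change of 2.17 ± 0.45 (adjusted p = 0.00927). Timp1, the inhibitor of matrix metalloproteinases, read 0.26, 0.83, 0.64, 1.50 and -1.98 against -2.27, -2.62, -2.47, -2.53 and -2.47, a change of 2.72 ± 0.49 (6.59-fold, adjusted p = 0.00231). Exposed and vehicle arrays did not overlap for these 3 genes, and the 2 probes of Timp1 gave 2.10 and 3.35. Timp1 was the 1 call among 22 matrix proteases and inhibitors. Mmp8, Mmp3 and Mmp9 were at 0.62, 0.78 and 0.56 with adjusted p = 0.106, 0.118 and 0.136. Of 20 complement genes C3 alone was called, at 0.97, with 1.27 and 0.68 from its 2 probes. Of 18 eicosanoid enzymes 2 rose, the prostaglandin E synthase Ptges at 0.87 and the cyclooxygenase Ptgs1 at 0.76. With slide as a block Ptges was called and Ptgs1 was not (limma adjusted p = 0.0581).

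Iron, haem and oxidant genes moved in part. Of 20 iron and haem genes 5 rose and 0 fell (median 0.35), which were Lcn2, Cp and Hpx above, the ferritin heavy chain Fth1 at 0.53 and the metalloreductase Steap4 at 0.50. The transferrin receptor Tfrc was at 0.66 (adjusted p = 0.0867), and Hmox1, which breaks down haem, at 0.52 (adjusted p = 0.194). Fth1 was also the 1 call among 25 Nrf2 antioxidant targets, whose median was 0.09, and with slide as a block this list had 0 calls (Fth1 adjusted p = 0.0579). Sod2, the mitochondrial superoxide dismutase, rose by 0.77 and was the 1 call among 17 superoxide genes. Slc39a14, an importer of zinc and iron, rose by 0.52 as the 1 call among 15 metallothionein and zinc transporter genes, with Mt2 at 1.37 (adjusted p = 0.0772).

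Chaperones of the endoplasmic reticulum formed the second group by number of calls. Of 25 unfolded protein response genes 6 rose and 0 fell, 22 were above 0, and the median was 0.28. Over all genes tested 0.482% were called higher and 54.9% were above 0. Sdf2l1, a component of a chaperone complex there, read -0.37, -0.05, -0.28, 0.15 and -1.10 against -1.34, -1.58, -1.49, -1.92 and -1.61, a change of 1.26 ± 0.24 (adjusted p = 0.00453), without overlap. The central chaperone Hspa5 (BiP) rose by 0.67, Manf by 0.86, Creld2 by 0.51, the disulphide isomerase Pdia6 by 0.50 and the co-chaperone Dnajb11 by 0.50. With slide as a block, which called 1.58% of all genes higher, 10 members were called. Among them were the lectin chaperones Calr and Canx and the transcription factor Xbp1. Without the block these were at 0.63, 0.29 and 0.51 (adjusted p = 0.144, 0.124 and 0.237). Of genes next to this pathway and grouped after their values were seen, the vesicle coat components Sec23b and Sar1a rose by 0.39 and 0.23, the endoplasmic reticulum transporter Slc35b1 by 0.39 and the membrane-bound transcription factor Creb3l1 by 0.34.

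Growth-related lists had positive medians and few calls. All 26 cell cycle genes were above 0, with a median of 0.41, and 2 rose, the replication helicase subunits Mcm2 at 0.64 and Mcm7 at 0.54. With slide as a block 5 were called, namely Mcm2, Mcm3, Mcm5, Pcna and Uhrf1, while Mcm7 was not (adjusted p = 0.0508). In exposed replicate 5 the median of this list was -0.10, against 0.31 to 0.62 in the other 4 arrays, and without it 6 members were called. Of 38 proteasome subunits 37 were above 0, and 14 were higher without overlap between the groups, against 3.55% of all genes tested. Of these subunits 0 passed the test (median 0.23), while 8 were called with slide as a block, which called 1.58% of all genes higher. Of 21 ribosome biogenesis and translation factors 0 were called (median 0.20), and 6 with slide as a block. Of 20 sterol and fatty acid synthesis genes 0 were called (median 0.27). Over all genes 9684 of 17627 were above 0.

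**Figure D3:**
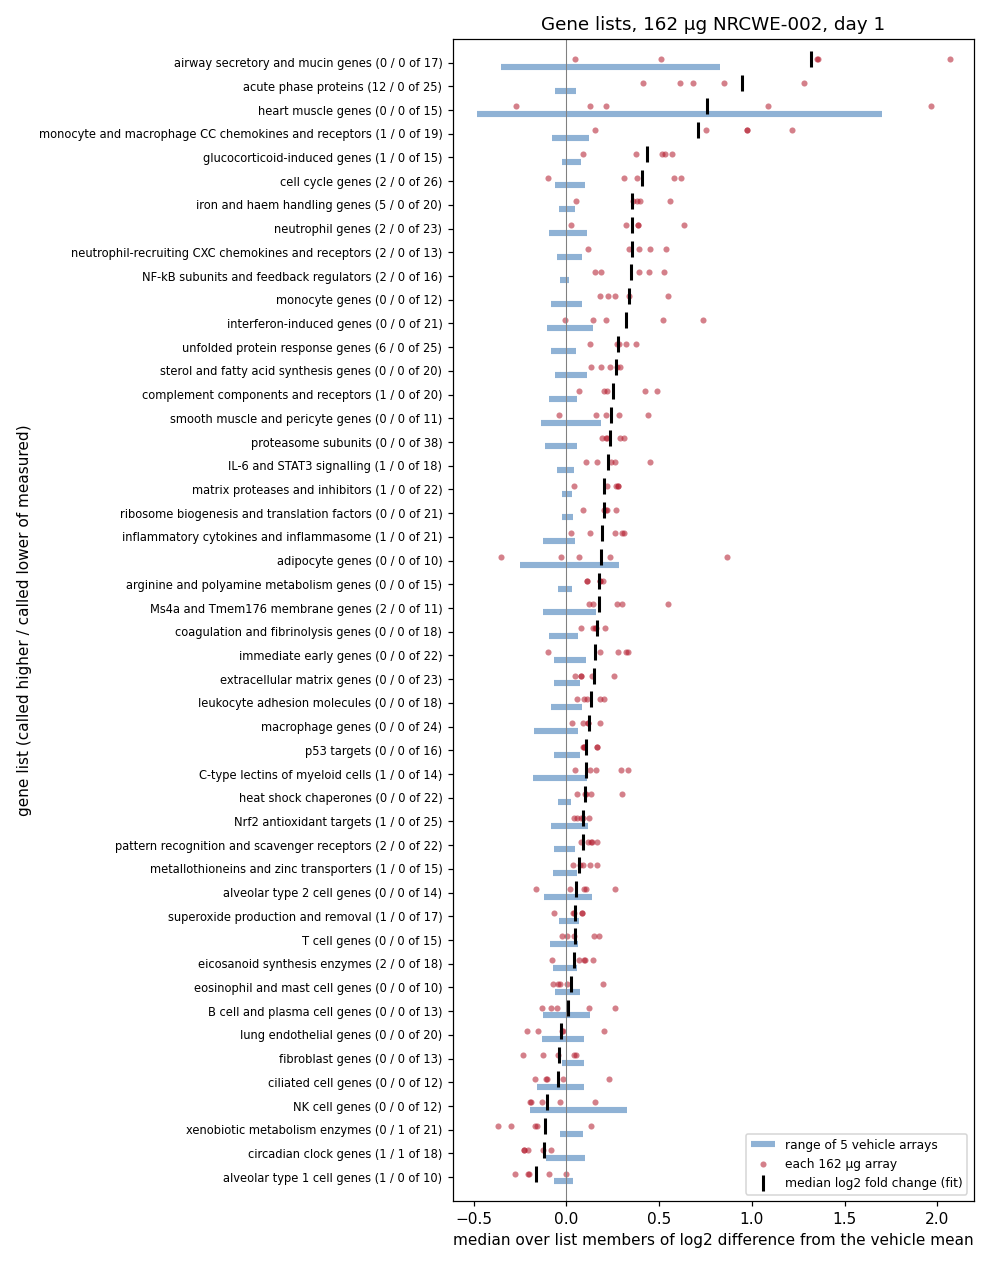
Median over the members of each gene list of the log2 difference from the vehicle mean (horizontal), with red points for the 5 exposed arrays, a blue bar for the range of the 5 vehicle arrays and a black tick for the median log2 fold change. Labels give members called higher and lower of those measured. Acute phase proteins (12 of 25) stand clear of the vehicle bar on all 5 arrays, while airway secretory and heart muscle genes vary widely in vehicle lungs as well.

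Further genes were called higher. Pbp2, of the phosphatidylethanolamine-binding protein family, read 1.53, 1.52, 1.29, 2.11 and 0.44 against 0.48, 0.28, 0.39, -0.05 and 0.46, a change of 1.07 ± 0.23 (adjusted p = 0.0134), and its groups overlapped through replicate 5. Membrane and adhesion genes were the integrin Itga7 at 0.93, Clmp at 0.83, Pdpn at 0.58, Tmigd3 at 0.46 and the interferon-inducible Ifitm1 and Ifitm2 at 0.86 and 0.53. Genes of metabolism and nucleotide supply were Isyna1, of inositol synthesis, at 0.80, the phospholipase Pla1a at 0.77, Ppa1 at 0.75, Uck2 at 0.64, Nme1 at 0.63, the sterol enzyme Nsdhl at 0.43 and Ddt at 0.31. The protease inhibitor Serpind1 rose by 0.76, the transcriptional repressor Nfil3 by 0.76 and the calcium-binding protein S100a11 by 0.50. Genes of the nucleus, transport and the cytoskeleton were Tuba1c at 0.58, H2az1 at 0.55, Snrpa1 at 0.51, Ran at 0.45, Ppil1 at 0.40, Gatad1 at 0.33, Ipo5 at 0.29 and Nsmce1 at 0.26.

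Mitochondrial and remaining genes called higher were Clpb at 0.40, Uqcc2 at 0.39, Cisd3 at 0.33, Ndufa9 at 0.33, Nubp1 at 0.33, Rnf121 at 0.33, 9130401M01Rik at 0.33, the ribosomal protein gene Rpl36al at 0.28 and Ubl4a at 0.27. A930011G23Rik and Clrn1 were also called higher, but they were well above background on 0 and 1 of the 10 arrays, so no fold is given. Most of these changes were under 1.5-fold.

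The 20 genes called lower did not gather in one list. Gas6, the ligand of the TAM receptors that clear apoptotic cells, read 2.79, 2.66, 2.94, 2.77 and 2.71 in exposed and 3.65, 3.43, 3.53, 3.67 and 3.38 in vehicle lungs. The groups were well separated with little spread in either, and the change was -0.76 ± 0.12 with the smallest p of all genes (adjusted p = 0.000278). Dbp, an output transcription factor of the circadian clock, read -0.22, 0.15, 0.47, 0.34 and 0.49 against 1.30, 1.82, 1.97, 1.99 and 0.73, a change of -1.32 ± 0.27 (adjusted p = 0.00794). The groups did not overlap, but the lowest vehicle array was close to the exposed arrays, and the within-slide differences were -2.21 and -0.26. Of 18 clock genes Dbp fell and the repressor Nfil3 rose, the latter with an adjusted p of 0.0832 with slide as a block. Arntl, of the positive limb, was at 0.76 (adjusted p = 0.112), and the repressors Nr1d1 and Nr1d2 at -0.26 and -0.67 (adjusted p = 0.163 and 0.169).

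The proteoglycan Bcan read 0.48, 0.11, 0.22, 0.34 and 0.79 against 1.26, 1.88, 1.87, 1.64 and 1.24, a change of -1.19 ± 0.26 (adjusted p = 0.011). Bex1 read 1.56, 1.32, 1.73, 1.01 and 1.43 against 2.40, 2.38, 2.63, 2.31 and 2.51, a change of -1.04 ± 0.27 (adjusted p = 0.0494). Neither gene overlapped between the groups, but the call of Bex1 was lost in each of the 10 fits that left out 1 array and with slide as a block. Cyp1a1, the aryl hydrocarbon receptor target, read 1.38, 0.67, 0.72, 0.09 and 0.64 against 1.26, 1.72, 1.30, 1.79 and 1.52, a change of -0.82 ± 0.20 (adjusted p = 0.0339). Exposed replicate 1 lay within the vehicle range, and with slide as a block the adjusted p was 0.0961. Cyp1a1 was the 1 call among 21 xenobiotic metabolism enzymes, whose median was -0.12. Ces1d was at -0.62 (adjusted p = 0.124).

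Cdc42ep3, an effector of the small GTPase Cdc42, read 0.00, -0.45, -0.33, -0.43 and -0.02 against 0.52, 0.62, 0.64, 0.45 and 0.14, a change of -0.72 ± 0.13 (adjusted p = 0.00231). The copine Cpne5 read 0.50, 0.17, 0.32, 0.12 and 0.50 against 1.05, 0.92, 0.80, 1.09 and 0.72, a change of -0.59 ± 0.14 (adjusted p = 0.0194), with 3 probes that gave -0.84, -0.59 and 0.00. Zfp704, a zinc finger gene, read 0.91, 0.76, 0.56, 0.73 and 0.93 against 1.59, 1.18, 1.41, 1.55 and 1.07, a change of -0.58 ± 0.13 (adjusted p = 0.0127). None of these 3 overlapped between the groups. The others were Rdm1 at -0.45, the insulin receptor adaptor Grb14 at -0.44, Acbd4 at -0.43, the PI3-kinase inhibitor Pik3ip1 at -0.43, Rpl37a at -0.41, Cpq at -0.39, Polr3gl at -0.37, Slc35f3 at -0.32, Ing2 at -0.29, Rpl22 at -0.27, Pptc7 at -0.26 and Lilra5 at -0.24. The 2 probes of Slc35f3 gave -0.65 and 0.00.

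Lists of structural lung cells gave 1 call. Of 10 alveolar type 1 genes Pdpn alone was called, higher, while the median was -0.16 and 1 of 10 was above 0. The alveolar type 2, ciliated, endothelial and fibroblast lists had 0 calls and medians of 0.05, -0.05, -0.03 and -0.04. Sftpc, the lowest of the 14 type 2 genes at -0.34, was lower without overlap between the groups but was not called. Over all genes tested 1.36% were lower without overlap. Airway secretory and mucin genes had the largest median of any list, 1.32, with 0 of 17 called. That median was 0.38 with slide as a block, the 5 exposed arrays ran from 0.04 to 2.07, and the vehicle arrays from -0.35 to 0.83. Slc26a4, the anion exchanger pendrin, was at 2.57 (adjusted p = 0.147), Muc4 at 0.90 (adjusted p = 0.222) and Pigr at 1.46 (adjusted p = 0.236). Of the 17 airway genes 15 were above 0, and the lowest was Scgb1a1 at -0.75. The 2 measured club cell markers, Scgb1a1 and Cyp2f2 (-0.29), were both below 0 and were not called. Heart muscle genes had a median of 0.76 with 0 of 15 called and a vehicle range of -0.48 to 1.70. The 21 interferon-induced genes of the list, which did not hold Ifitm1 or Ifitm2, had 0 calls and a median of 0.32.

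**Figure D4:**
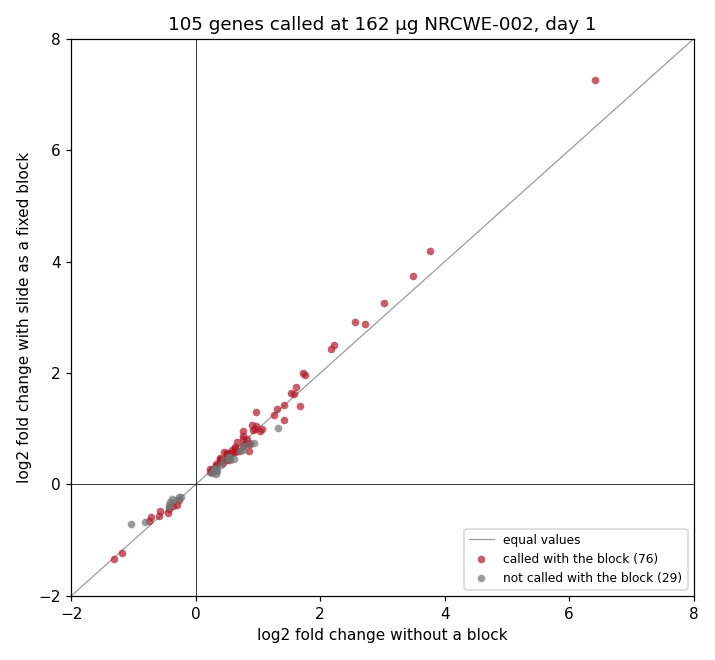
Log2 fold change without a block (horizontal) and with slide as a fixed block (vertical) for the 105 called genes, red where the call was also made with the block (76) and grey where it was not (29). All 105 points lie in the quadrants of equal sign, and Saa3 is at 6.42 and 7.27.

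The 105 genes were then read at the other doses, with the other particle and at the later time. The comparisons of day 1 share the same 5 vehicle arrays, so their values are given side by side. The median log2 fold change of the 85 higher genes was 0.05 at 18 µg, 0.43 at 54 µg and 0.64 at 162 µg of NRCWE-002, 0.58 at 162 µg of NRCWE-001, and 0.13 at 162 µg of NRCWE-002 on day 28. For the 20 lower genes the same medians were -0.05, -0.31, -0.44, -0.40 and -0.11. Since the genes were chosen at 162 µg on day 1, these medians are a description. Limma gave 0 calls at 18 µg (0%, 519 genes having an unadjusted p under 0.05), 11 genes at 54 µg (0.0624%), 93 at 162 µg of NRCWE-001 (0.528%) and 1 on day 28 (0.00567%). In the fit blocked on slide these became 1, 242, 770 and 1, against 343 at 162 µg of NRCWE-002, so the order of the 2 particles by number of calls turned with the block.

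The values at 162 µg, and so their comparison with 54 µg, depended on exposed replicate 5 for some acute phase genes. The log2 fold changes of Saa3, Lcn2 and Orm2 were 6.16, 3.03 and 2.21 at 54 µg and 6.42, 3.02 and 2.23 at 162 µg. They were 7.34, 3.42 and 2.64 at 162 µg without replicate 5. No array of 54 µg was left out for these values, although Saa3 varied widely there too. Saa3 was at -2.82 ± 0.52 (SD, n = 5) at 18 µg, 2.84 ± 1.51 at 54 µg and 3.11 ± 2.09 at 162 µg. The difference between 162 and 54 µg was 0.27 with a 95% interval of -2.02 to 2.56. For Lcn2 it was -0.01 (-1.23 to 1.21) and for Orm2 0.01 (-0.85 to 0.87). For Cxcl5 it was 1.46 (-0.11 to 3.02), for Sdf2l1 0.45 (-0.03 to 0.93) and for Il1b 0.58 (-0.14 to 1.31). Gas6 was at 3.53, 3.16 and 2.78 at 18, 54 and 162 µg, with a vehicle mean that was also 3.53, and its difference between 162 and 54 µg was -0.38 (-0.61 to -0.15), while that of Dbp was -0.72 (-1.26 to -0.19). Over all genes 0 passed the adjusted threshold for this difference (483 at an unadjusted p under 0.05), so none of these differences was called.

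The charged and the unmodified particle at 162 µg were compared directly, without the vehicle. By limma 0 genes (0%) passed, also with slide as a block, and 192 had an unadjusted p under 0.05. Across the 105 genes the difference, NRCWE-002 minus NRCWE-001, ran from -0.59 to 0.56 with a median of 0.02, and its 95% interval did not include 0 for 6 of them. For Saa3 it was 0.31 (-1.98 to 2.60), for Lcn2 0.26 (-0.96 to 1.48), for Il1b 0.05 (-0.67 to 0.77), for Hspa5 -0.06 (-0.33 to 0.21) and for Gas6 -0.17 (-0.40 to 0.06). Dbp was lower with NRCWE-002 by a difference of -0.59 (-1.13 to -0.06), which did not pass the adjusted threshold. The intervals of Saa3 and Lcn2 still allow differences of over 2-fold.

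Whether the effect of 162 µg differed between days was tested as an interaction, day 28 minus day 1, with 4 vehicle arrays on day 28. By limma 0 genes (0%) passed, and 1176 had an unadjusted p under 0.05. For Saa3 the difference in effect was -4.24 (-7.58 to -0.91), for Saa1 -3.02 (-4.94 to -1.09), for Timp1 -2.17 (-3.61 to -0.74), for Orm2 -2.01 (-3.26 to -0.76), for Il1b -1.24 (-2.29 to -0.19) and for Gas6 0.65 (0.31 to 0.98). The interval did not include 0 for 70 of the 105 genes, which were chosen for their change on day 1. For Cxcl5 it was -1.36 (-3.64 to 0.93), with effects of 3.49 on day 1 and 2.13 on day 28.

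**Figure D5:**
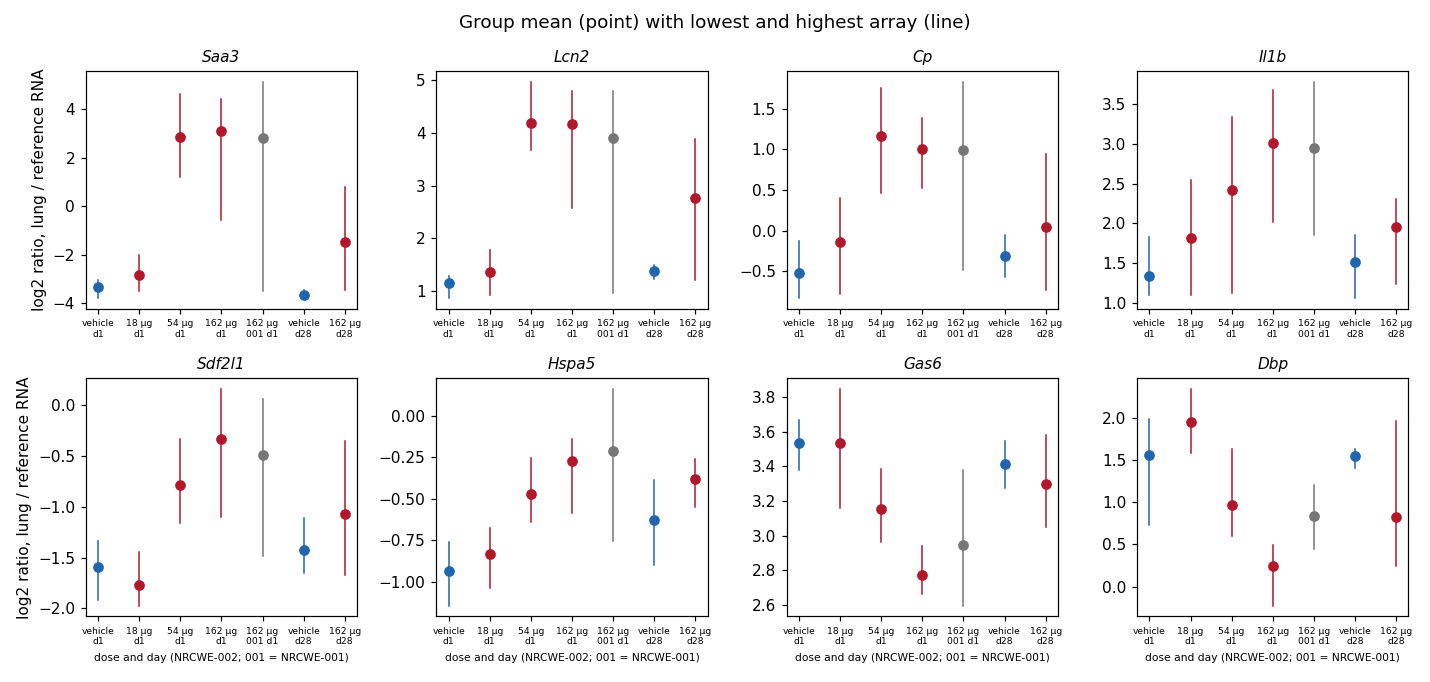
Log2 ratio of lung to reference RNA (vertical) by dose and day (horizontal) for 8 called genes chosen after their values were seen, with the group mean as a point and a line from the lowest to the highest array, vehicle in blue, NRCWE-002 in red and NRCWE-001 in grey. Lcn2 and Cp at 54 µg are as high as at 162 µg, and Gas6 falls from 3.53 in vehicle lungs to 3.16 at 54 µg and 2.78 at 162 µg.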

How the data were processed

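Lung RNA was hybridised to 2-colour Agilent whole-genome mouse arrays, 1 mouse per array, with the sample in Cy5, the reference in Cy3 and no dye swap. The authors read each deposited intensity (median pixel brightness, linear, not normalized) with Agilent Feature Extraction software, and the processed signals in the same files are corrected for background and dye by that software. The authors' deposited table held LOWESS-normalized log2 ratios of sample to reference, which were set against the ratios of each array to check direction and scale. It served as an alternative.

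Intensities were corrected with normexp (offset 50, leaving spots with a local background over 10 median absolute deviations out of the curve) and normalized by loess in limma 3.58.1 under R 4.3.3. Outlier-flagged and control spots were left out. Probe accessions were matched to symbols of a RefSeq table (GRCm38.p6), which named 27479 of 41174 probes. Probes well above background on at least 4 of 69 arrays were kept, and a gene took the median of its probes. Groups came from the labels. All 69 arrays entered 1 limma fit of 14 group means, and p-values, 2-sided, were adjusted by Benjamini-Hochberg over 17627 genes with a threshold of 0.05. In simulated data of this comparison on 17627 genes, 92% of 2-fold and 99% of 4-fold changes were recovered and 11 unchanged genes were called. Whether these shares hold for the measured arrays was not tested. The measured spread could differ between the groups, as for Saa3 (SD 2.09 in exposed and 0.30 in vehicle lungs). Slc26a4 and Ccl7, with measured log2 fold changes of 2.57 and 2.14, were not called. Every called gene was named, with the values of each array for those past 2-fold and for the 8 largest falls, and of each list up to 3 uncalled members with the smallest p. For genes well above background on no vehicle array, folds in the sample channel used a floor. Vehicle signals under the lowest signal well above background of their array were raised to it, and the exposed mean was compared with their mean. This floor is not an upper limit on an undetected signal, so these folds are estimates. The study gives at least 5 animals per group, while the vehicle group of day 28 held 4 arrays, and each array was taken as 1 mouse. The comparison and the gene lists were chosen with earlier results of these data known.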

Additional observations from a re-analysis of the deposited data

Results flagged for a closer look

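Among the 105 called genes, 210 groups of 5 arrays (exposed and vehicle) were screened for 1 array far from the other 4, and 21 were found. Chance flags about 1 in 20 groups. Of the 21, 15 were replicate 5 of the exposed group, which read closer to the vehicle arrays than the other 4 exposed arrays did. Its log2 ratios there were -0.57 for Saa3, 0.0639 for Saa1, 0.50 for Saa2, 2.58 for Lcn2, 0.58 for Orm2, 2.02 for Serpina3n, 2.70 for Serpina3m, 1.50 for Il4i1 and 0.61 for Sod2. For Hspa5 it was at -0.59, for Sec23b at -0.22, for Snrpa1 at -1.69, for H2az1 at -1.59, for Ppa1 at -1.86 and for Lilra5, which fell, at 0.27. The median change of the 85 higher genes was 0.28 in this array against 0.63 to 0.78 in the others, and its share of spots well above background, 63.5%, lay within the 62.5% to 73.3% of the 10 arrays. It shared its slide and scan day with replicate 4.

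The other 6 were single values. Ndufa9 read 0.57 in exposed replicate 2. In vehicle lungs Il4i1 read 0.49 in replicate 2, Mcm7 -2.49 in replicate 3, Itih4 1.95 and Ptgs1 -0.66 in replicate 4, and Serpind1 1.29 in replicate 5.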

How the results depend on the processing

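Of the 105 genes, each kept its direction in every alternative that tested it (4 dropped out under the stricter filter on dim probes), but the number called moved widely. It was 343 with slide as a fixed block, 346 with that block on the authors' log2 ratios (an alternative chosen after seeing the data), 511 with slide as a random block, 782 with scan day as a block, 34 with normexp fitted on all spots, 37 with median centring, 479 and 604 when the arrays of day 1 or of the 2 groups were fitted alone, and 1286 with array quality weights, against 105. The other settings gave 70 to 117, and Aquantile scaling leaves the ratios as they are. Leaving out 1 array gave 24 (without exposed replicate 2) to 209 (without exposed replicate 5). The difference between the particles and that between the doses gave 0 calls in each setting computed. The difference between the days gave 0 except for 7 with slide as a random block, 23 with scan day as a block, 22 with array quality weights and, leaving out 1 array, 0 to 8, the highest without replicate 1 of 162 µg on day 28. The cause of these moves was not tested. No paired analysis was possible because replicate numbers were given in accession order and the labels carry no number that groups share. Signals near background have compressed ratios, and with at most 5 arrays per group small changes could be missed.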

Other observations

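With slide as a fixed block 267 genes were called that were not called without it, 213 higher and 54 lower. The genes named here were chosen after their values were seen. Among those lower were Ear1, Ear10 and Rnase2a, ribonucleases of the eosinophil-associated family, at -1.43, -1.14 and -1.24 with the block (limma adjusted p = 0.015, 0.0364 and 0.0199) and at -1.10, -0.80 and -0.86 without it. Cross-hybridisation between these related genes was not tested. Higher with the block were the pantetheinases Vnn3 and Vnn1 at 1.41 and 1.24 (adjusted p = 0.00658 and 0.0396), the replication-linked Uhrf1 at 1.19 (adjusted p = 0.0491), the arginase Arg2 at 0.87 (adjusted p = 0.0221), the galectin Lgals1 at 0.83 (adjusted p = 0.0163) and the transferrin receptor Tfrc at 0.80 (adjusted p = 0.005). Without the block these 6 were at 1.11, 0.98, 1.00, 0.75, 0.65 and 0.66.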
